A study of Oryza sativa with 24 samples.

Results

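The genes described here are the GRAS and Dof transcription factor genes of rice, taken as separate families. They were found by words in the annotation (GRAS, SCARECROW, SHORT-ROOT, Dof domain) or by a gene name starting with Dof, GRAS, SCR, SHR or SCL. SLR1 and genes annotated with DELLA or gibberellin were to be left out, and 0 matches fell under that clause. OsSLRL2, annotated by its GRAS domain alone, stayed among the members. The words matched 96 of the 38866 genes in the deposited table, and 20 of these were set aside because their annotation named another protein, among them 9 integrase genes, 4 grasp-fold genes and 3 cupredoxin genes. The remaining 76 genes comprised 51 GRAS genes and 25 Dof genes. Of the GRAS genes 40 had enough counts to be tested, 5 more were above 0 in at least 1 library, and 6 were at 0 in every library. Of the Dof genes 23 were tested, and OsDof11 and OsDof30 were above 0 in 1 and 3 libraries but too low to test.

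GRAS proteins are plant-specific regulators that share a conserved carboxy-terminal domain and mostly act with DNA-binding partners. In the Arabidopsis root, SHORT-ROOT (SHR) protein moves out of the central cylinder and acts with SCARECROW (SCR) in the adjoining layer, where they direct the asymmetric divisions that form the ground tissue. HAIRY MERISTEM (HAM) proteins keep shoot meristem cells undifferentiated, and MOC1 is needed for tiller buds in rice. Dof proteins bind DNA through a single zinc finger at sites with an AAAG core and are known from seed storage protein genes, light and carbon responses and the vascular tissue.

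RNA came from seeds of the Nipponbare background, of the line 35Spro:OsMIR393b and of wild-type. In the line a 35S promoter, which is active in most tissues, drives a microRNA directed at the auxin receptor transcripts OsTIR1 and OsAFB2. Each genotype was sampled after 2, 5 and 7 d of callus-inducing medium (CIM), which contains auxin, and also after 2 d on N6, a medium without hormone. Each of the 8 groups had 3 libraries. TIR1 was lower in the line than in wild-type in all 4 conditions (log2 differences of -2.09 to -1.81). The level of OsAFB2 is not given here. N6 was sampled at 2 d alone, so medium and time change together in the comparisons of 5 and 7 d. The tissue is labelled mature embryo, and the methods of the study describe scutella pooled from 10 seeds per sample, so that an amount per cell and a number of cells of a given type cannot be told apart.

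Levels are CPM, counts taken relative to the TMM-scaled library total, and FPKM is used where levels of different genes are set side by side. A gene was called when its adjusted p in the edgeR quasi-likelihood test over all 29710 tested genes was under 0.05 and its absolute log2 fold change was above 1. Totals ran from 50341636 to 70796624 estimated counts. In the line at CIM 5 d replicate 1 stood apart, with Spearman correlations of 0.967 and 0.951 with replicates 2 and 3, which correlated at 0.979 with each other. All other pairs within a group were at 0.962 or above. With library totals in place of TMM factors the median gene was no longer near 0. It was at -0.62 on the log2 scale in the line against wild-type at CIM 7 d, -0.36 at CIM 5 d, and 0.29 in wild-type at CIM 7 d against N6. Among markers of other cell types, 14 green leaf genes summed to a median of 332 CPM in the line and 31.1 CPM in wild-type on N6. At CIM 7 d they summed to 24.2 CPM in the line and 6.55 CPM in wild-type. The 50 endosperm genes, which include the processing genes GLUP3 and ESP2, summed to a median of 1958 CPM in the line and 2107 CPM in wild-type on N6. At CIM 7 d the sum was 1286 CPM in the line and 783 CPM in wild-type, where 10 and 31 of the 50 were at 0 in all 3 libraries. The sums understate the gap in most of these genes. In the line against wild-type at CIM 7 d, 25 of 38 tested were called higher and 0 lower. Their median log2 difference was 4.72, and 18.7% of all genes were called higher there. On N6 0 of the 38 were called, with a median of 1.26. Only 12 of the 50 reached 12 counts in a wild-type library at CIM 7 d. The part of these markers in the values below was not tested.

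Few GRAS genes were called at 2 d on CIM, and later calls went in both directions. In wild-type at CIM 2 d against N6, 1 of 40 GRAS genes was called (2.5%, where 8.31% of all tested genes were called, 4.3% higher and 4.01% lower), and 4 were called without CIM 2 d replicate 1. By CIM 5 d 11 GRAS genes had risen and 9 had fallen, or 50% of those tested, where 27.1% of all genes were called (12.6% higher and 14.6% lower). By CIM 7 d 10 had risen and 6 had fallen, or 40%, where 28.9% of all genes were called (14.2% higher and 14.7% lower). The family's median log2 fold change was 0.03 at 5 d and 0.30 at 7 d, where that of all genes was 0.02. Within the line, 0 GRAS genes were called at CIM 2 d against N6 by edgeR and 0 by DESeq2, 4 had an unadjusted p under 0.05, and the background was 1.59%. By CIM 5 d 5 had risen and 1 had fallen (background 10.6%, 6.35% higher and 4.21% lower). By CIM 7 d 5 had risen and 5 had fallen (background 22.5%, 10% higher and 12.5% lower).

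Between the genotypes most GRAS calls came at the later days. In the line against wild-type 1 GRAS gene was called on N6, where it was lower (background 2.97%, 1.79% higher and 1.18% lower). At CIM 2 d 1 was higher and 1 lower (background 6.65%, 3.92% higher and 2.73% lower). The count was 17 at CIM 5 d, 8 of them higher and 9 lower (background 26.7%, 15.8% higher and 10.9% lower). It was 23 at CIM 7 d, 10 of them higher and 13 lower (background 39%, 18.7% higher and 20.3% lower). With library totals as the scale the split was 0 higher and 1 lower at CIM 2 d, 6 higher and 13 lower at 5 d, and 6 higher and 16 lower at 7 d. Without line replicate 3 the count at CIM 5 d was 9, and without line replicate 1 it was 21. At CIM 2 d the count was 0 without line replicate 2 and 3 without wild-type replicate 1.

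**Figure D1:**
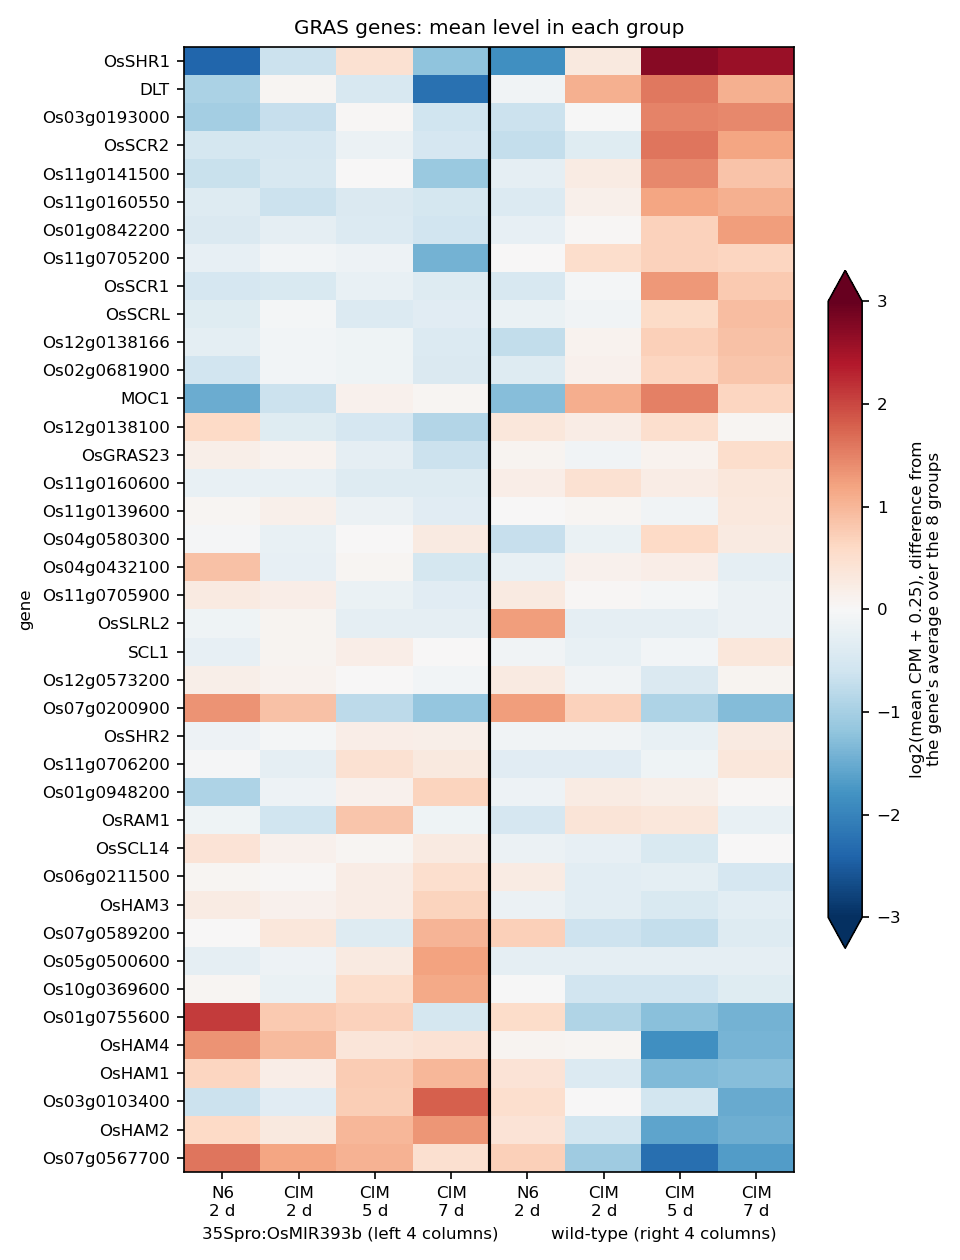
Mean level of the 40 tested GRAS genes in the 8 groups (columns: the line on N6 and at CIM 2, 5 and 7 d, then wild-type in the same order), as log2 of the mean CPM plus 0.25 relative to the gene's average over the groups. OsSHR1, DLT, OsSCR2 and Os03g0193000 are at the top, with their highest levels in wild-type at CIM 5 d, and OsHAM1, OsHAM2 and Os07g0567700 at the bottom, with low wild-type levels at 5 and 7 d.

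OsSHR1, OsSCR1 and OsSCR2 were higher on CIM in wild-type at 5 and 7 d. OsSHR1 (Os07g0586900, chromosome 7, 23868417 to 23871087, IRGSP-1.0), whose annotation gives roles in the root endodermis and in cortex layers, had 16.5, 6.73 and 1.49 CPM in the line and 44.1, 38.9 and 39.9 CPM in wild-type at CIM 5 d. At CIM 7 d it had 0.425, 3.69 and 3.2 CPM in the line against 33.3, 38.2 and 39 CPM in wild-type. On N6 the levels were 1.33, 0.394 and 1.12 CPM in the line and 0.77, 1.32 and 2.37 CPM in wild-type. The genotypes thus overlapped on N6 and were apart at 5 and 7 d, and the line at 5 d was the most scattered of these groups. In wild-type the log2 fold change against N6 was 4.79 ± 0.86 at 5 d (SE, adjusted p = 0.00014) and 4.63 ± 0.86 at 7 d (adjusted p = 0.00016), while at 2 d it was 2.30 ± 0.79 (adjusted p = 0.05, not called).

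For OsSHR1 the line differed from wild-type by -2.31 ± 0.76 at CIM 5 d (log2, adjusted p = 0.017) and -3.91 ± 0.83 at CIM 7 d (adjusted p = 0.00041). The call at 5 d was lost without line replicate 2 (-2.18) or line replicate 3 (-1.82). Within the line OsSHR1 was called higher at 5 d (3.13 ± 0.82, adjusted p = 0.0097) but not without the replicate 1 that stood apart (2.12, adjusted p = 0.057), and at 7 d its change was 1.37 ± 0.80 (adjusted p = 0.18). The change from N6 to CIM 7 d differed between the genotypes by -3.26 ± 1.12 (adjusted p = 0.022), a call lost without N6 replicate 1 of wild-type (-2.95) or of the line (-2.94).

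OsSCR1 and OsSCR2 followed the same course at higher levels. OsSCR1 (Os11g0124300, chromosome 11, 1119746 to 1123350) had 36.8, 28.4 and 24.2 CPM in the line and 98.1, 82.2 and 79.1 CPM in wild-type at CIM 5 d. OsSCR2 (Os12g0122000, chromosome 12, 1043608 to 1047116) had 47, 22.9 and 21.5 CPM in the line and 122, 102 and 92.3 CPM in wild-type at that time. On N6 OsSCR1 was at 24.5 CPM in the line and 24.8 CPM in wild-type, and OsSCR2 at 23.8 CPM in the line and 20.8 CPM in wild-type. The pair lies in the duplicated ends of chromosomes 11 and 12 and is close in sequence, so reads may have been divided between them. Their sum is free of that division. It was 60.2 ± 20.6 CPM in the line and 192 ± 25.1 CPM in wild-type at CIM 5 d, and 48.3 ± 3.49 CPM in the line and 45.7 ± 1 CPM in wild-type on N6 (SD, n = 3 each).

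In wild-type against N6 the log2 fold change of OsSCR1 was 1.80 ± 0.17 at CIM 5 d (adjusted p = 1.1e-07) and 1.28 ± 0.17 at 7 d (adjusted p = 4.9e-06). That of OsSCR2 was 2.34 ± 0.25 at 5 d (adjusted p = 3.6e-07) and 1.91 ± 0.25 at 7 d (adjusted p = 2.8e-06). Within the line neither was called at any time, with changes of 0.03 to 0.36. The change from N6 differed between the genotypes by -1.52 ± 0.24 for OsSCR1 and -1.98 ± 0.34 for OsSCR2 at 5 d, and by -1.16 ± 0.24 and -1.87 ± 0.34 at 7 d. The root marker genes RCc2 and RCc3, measured beside them, did not follow this course. Their summed level at CIM 5 d was 116 to 134 CPM in the line and 29.1 to 72.5 CPM in wild-type, and on N6 44.2 to 90.8 CPM in the line and 95.8 to 206 CPM in wild-type. At CIM 2 d it was 201 to 270 CPM in the line and 515 to 759 CPM in wild-type. By CIM 7 d it was 41.8 to 45.3 CPM in the line and 16.2 to 32.3 CPM in wild-type. The gap on N6 was in RCc2 (49.9 CPM in the line, 121 CPM in wild-type) and not in RCc3 (23.5 and 25.9 CPM). A part of root tissue in the SHR and SCR values was not tested.

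Among other genes named or annotated after SHR or SCR, Os01g0842200, Os11g0705200 and OsSCRL also had a lower change to CIM 7 d in the line than in wild-type (differences of -1.66, -1.85 and -1.12), whereas OsSHR2, Os07g0200900 and Os07g0567700 took other courses. OsSHR2 (Os03g0433200), with roles in cortex layers and stomata, had group means of 0.312 to 0.547 CPM and was called nowhere. Os07g0200900, annotated as similar to SHORT-ROOT 2, was lower on CIM in both genotypes. At 7 d it had 3.93, 2.01 and 3.33 CPM in the line and 1.59, 2.35 and 4.33 CPM in wild-type, against 21, 15.5 and 19.6 CPM in the line and 8.91, 21.5 and 22.2 CPM in wild-type on N6. Its log2 fold changes at 7 d were -2.60 ± 0.36 in the line (adjusted p = 1.1e-05) and -2.67 ± 0.36 in wild-type (adjusted p = 4.8e-06), and the difference between them was 0.07 ± 0.48 (adjusted p = 0.94), which does not show that they are equal. Os07g0567700, annotated as similar to SCARECROW, was lower in wild-type at CIM 5 d (-3.73 ± 0.89, adjusted p = 0.0017) and 7 d (-2.79 ± 0.84, adjusted p = 0.0087). At CIM 5 d it had 3.92, 6.19 and 5.42 CPM in the line and 0.223, 0.498 and 0.193 CPM in wild-type, a difference of 4.08 ± 0.90 on the log2 scale (adjusted p = 0.00086).

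OsHAM1 and OsHAM2 were called lower on CIM in wild-type at 5 and 7 d and not in the line. OsHAM1 (Os02g0662700, chromosome 2, 26841588 to 26844331) and OsHAM2 (Os02g0663100, chromosome 2, 26852082 to 26854948) are neighbours 7750 bases apart, annotated to maintain an indeterminate shoot apical meristem. OsHAM2 had 185, 151 and 192 CPM in the line and 22.8, 25.6 and 27.3 CPM in wild-type at CIM 7 d. On N6 it had 90.2, 114 and 116 CPM in the line and 84.2, 92.2 and 106 CPM in wild-type. All 3 line libraries were thus above all wild-type libraries at 7 d, while the genotypes overlapped on N6. In wild-type against N6 its log2 fold change was -0.97 ± 0.18 at CIM 2 d (adjusted p = 0.0011, under the fold threshold), -2.01 ± 0.19 at 5 d (adjusted p = 7.5e-08) and -1.90 ± 0.19 at 7 d (adjusted p = 1.1e-07). In the line it was -0.31 ± 0.18 at 2 d, 0.40 ± 0.18 at 5 d and 0.72 ± 0.18 at 7 d (adjusted p = 0.0031, under the fold threshold).

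OsHAM1 had 103, 68.6 and 93.9 CPM in the line and 18.7, 18.1 and 17.6 CPM in wild-type at CIM 7 d, and 60.5, 73.5 and 74 CPM in the line and 54.3, 60.2 and 63.5 CPM in wild-type on N6. Its change from N6 to CIM 7 d differed between the genotypes by 2.06 ± 0.24 (adjusted p = 2e-06), and that of OsHAM2 by 2.62 ± 0.26 (adjusted p = 4e-07). OsHAM3 (Os04g0555000) had group means of 32.9 to 48.5 CPM in the line and 22 to 26.9 CPM in wild-type, with 35.5 ± 2.22 CPM in the line and 22 ± 0.248 CPM in wild-type at CIM 5 d. It was called higher in the line at CIM 7 d alone (1.01 ± 0.11, adjusted p = 2.1e-07). That call sat at the fold threshold and was lost with library totals (0.42), without wild-type replicate 1 (0.97) or without line replicate 2 (0.98). OsHAM4 (Os06g0105350) was low, with 2.45 CPM in the line and 0.52 CPM in wild-type at CIM 7 d (log2 difference 2.24 ± 0.79, adjusted p = 0.02), a call lost with library totals (1.65, adjusted p = 0.068) or without wild-type replicate 2 (2.02) or 3 (2.09).

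Each of the 4 HAM genes overlaps an annotated locus on the opposite strand, and the library kit does not keep strand. The locus opposite OsHAM1 was at or below 0.0202 CPM and that opposite OsHAM2 at 0 CPM in all group means, whereas the locus opposite OsHAM4 reached 4.04 CPM in the line and 3.67 CPM in wild-type on N6, so OsHAM4 cannot be told apart from it. Beside the HAM genes, the shoot meristem genes OSH1 and OSH15 summed to 10.7 to 12.5 CPM in the line and 5.47 to 10.8 CPM in wild-type at CIM 7 d, and to 23.1 to 33.8 CPM in the line and 16.7 to 23 CPM in wild-type on N6. Most of these sums was OSH15, with means of 10.4 CPM in the line and 8.06 CPM in wild-type at 7 d. OSH1 alone had means of 1.34 CPM in the line and 0 CPM in wild-type at 7 d, and 3.2 CPM in the line and 3.47 CPM in wild-type on N6. The part of OSH1 and OSH15 tissue in the HAM values was not tested.

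**Figure D2:**
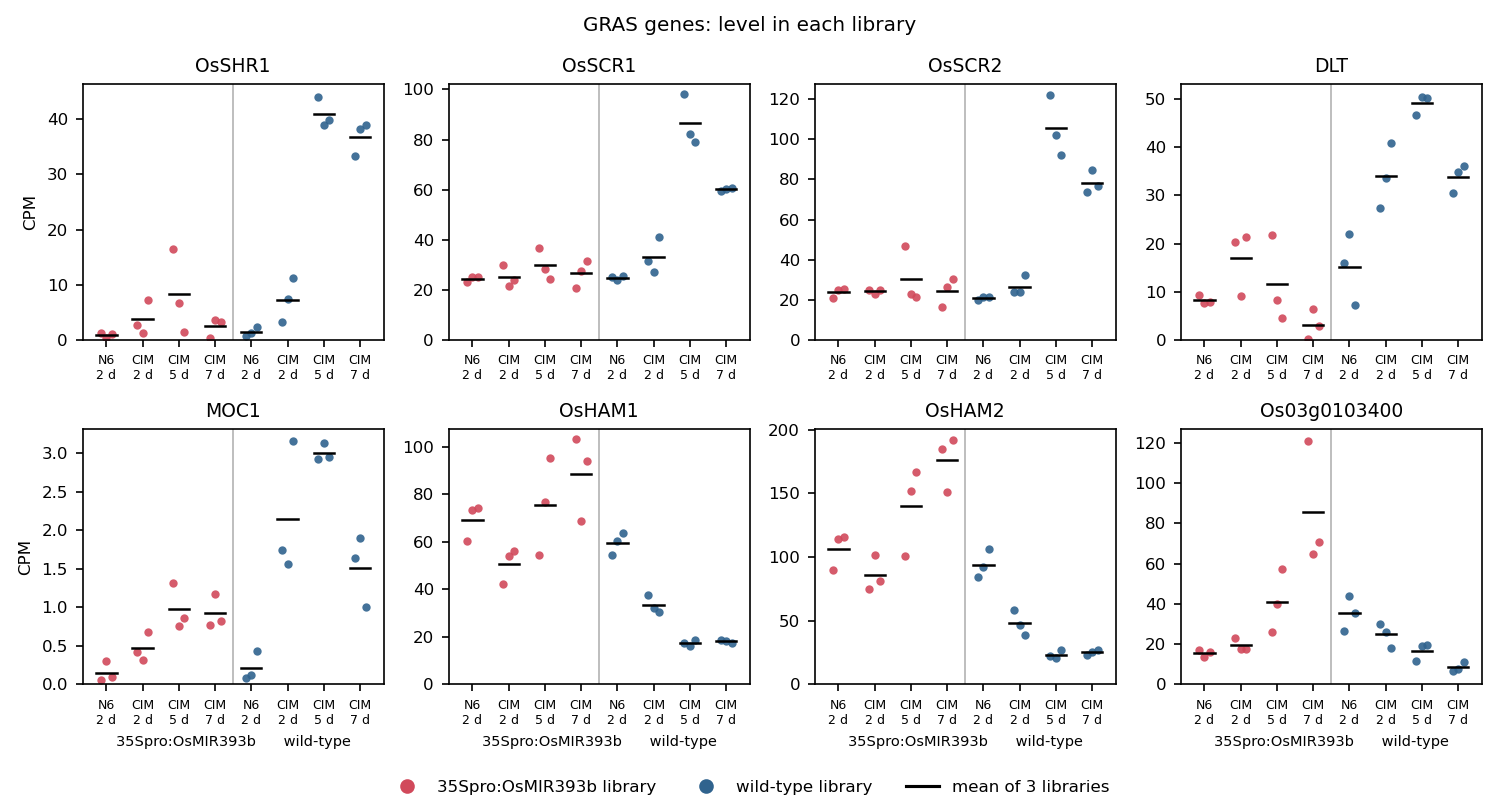
CPM of 8 GRAS genes in each of the 24 libraries (dots; red, the line, left; blue, wild-type, right; bars, means of 3), on N6 at 2 d and on CIM at 2, 5 and 7 d. OsSHR1, OsSCR1 and OsSCR2 are highest in the wild-type libraries of 5 and 7 d (for OsSHR1, 33.3 to 44.1 CPM), while OsHAM1, OsHAM2 and Os03g0103400 are high in the line at 7 d.

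MOC1 (Os06g0610350) was the only GRAS gene called at CIM 2 d in wild-type. It had 0.425, 0.312 and 0.683 CPM in the line and 1.74, 1.56 and 3.16 CPM in wild-type at that time, and 0.0639, 0.303 and 0.0975 CPM in the line and 0.0872, 0.124 and 0.433 CPM in wild-type on N6. The wild-type libraries at 2 d were all above those on N6. The log2 fold changes in wild-type were 3.32 ± 0.59 at 2 d (adjusted p = 0.00065), 3.80 ± 0.59 at 5 d (adjusted p = 3.2e-05) and 2.81 ± 0.58 at 7 d (adjusted p = 0.00042). In the line MOC1 was also higher at 5 d (2.64 ± 0.58, adjusted p = 0.0028) and 7 d (2.56 ± 0.58, adjusted p = 0.0014), and at 2 d its change was 1.60 ± 0.58 (adjusted p = 0.17). Its difference between the genotypes at CIM 2 d (-2.18 ± 0.55, adjusted p = 0.011) was lost without wild-type replicate 3 (-1.79) or line replicate 2 (-1.95), and the genotype difference in its change from N6 was not called at any time.

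DLT (Os06g0127800), a GRAS gene of brassinosteroid signalling, was lower in the line than in wild-type at CIM 5 and 7 d. The locus on its opposite strand was at 0 CPM in all groups. At CIM 5 d it had 21.8, 8.24 and 4.52 CPM in the line and 46.7, 50.5 and 50.2 CPM in wild-type. That log2 difference of -2.09 ± 0.66 (adjusted p = 0.012) was lost without line replicate 2 (-1.90, adjusted p = 0.055) or 3 (-1.71, adjusted p = 0.061). At CIM 7 d it had 0.221, 6.44 and 2.92 CPM in the line and 30.4, 34.8 and 36.2 CPM in wild-type, a log2 difference of -3.40 ± 0.70 (adjusted p = 0.00033). On N6 it had 9.33, 7.6 and 7.83 CPM in the line and 16, 21.9 and 7.33 CPM in wild-type, where the libraries overlapped and the difference was -0.87 ± 0.64 (adjusted p = 0.45). In wild-type it was higher at CIM 5 d (1.70 ± 0.65, adjusted p = 0.036), a call lost without N6 replicate 1 (1.75, adjusted p = 0.073) or 3 (1.34, adjusted p = 0.15) or without any of the libraries at 5 d (1.66 to 1.71). The genotype difference in its change to 7 d was -2.53 ± 0.92 (adjusted p = 0.03) and was likewise lost without any of 5 libraries, wild-type N6 replicate 3, CIM 7 d replicates 2 and 3, and line N6 replicate 1 and CIM 7 d replicate 3 (-2.14 to -2.47).

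Os03g0103400, a GRAS-domain gene with no name of its own, had the largest called genotype difference in its change to CIM 7 d among the GRAS genes of at least 1 CPM. It had 121, 64.9 and 70.5 CPM in the line and 6.67, 7.77 and 11 CPM in wild-type at CIM 7 d (log2 difference 3.33 ± 0.32, adjusted p = 5.3e-08). On N6 the order was the opposite, with 17.2, 13.6 and 16.3 CPM in the line and 26.6, 44 and 35.3 CPM in wild-type. The libraries did not overlap at either time. Its change from N6 to CIM 7 d was 2.45 ± 0.31 in the line (adjusted p = 4.8e-06) and -2.06 ± 0.31 in wild-type (adjusted p = 1.7e-05), and the changes differed by 4.51 ± 0.44 (adjusted p = 3.5e-07). The difference on N6 (-1.17 ± 0.30, adjusted p = 0.023) was the only GRAS call there and was lost when any of 5 of the 6 libraries was left out, all but wild-type replicate 1 (-0.98 to -1.24).

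Several further GRAS genes had a lower change in the line than in wild-type at CIM 7 d. Os03g0193000 had 15.2 ± 1.58 CPM in the line and 63.6 ± 3.8 CPM in wild-type at CIM 7 d, and 11.3 ± 0.53 CPM in the line and 14.6 ± 0.5 CPM in wild-type on N6 (SD, n = 3 each). Os01g0842200, similar to Scarecrow-like 9, had 23.1 ± 0.513 CPM in the line and 82.7 ± 7.47 CPM in wild-type at CIM 7 d, against 25.6 ± 3.73 CPM in the line and 29 ± 3.73 CPM in wild-type on N6. The changes of these genes to 7 d differed between the genotypes by -1.69 ± 0.24 for Os03g0193000 (adjusted p = 1.4e-05) and -1.66 ± 0.17 for Os01g0842200 (adjusted p = 6.4e-07). OsSCRL, Os02g0681900 and Os12g0138166 had the same direction, with differences of -1.12 ± 0.25, -1.08 ± 0.39 and -1.91 ± 0.37. That of OsSCRL was lost without wild-type CIM 7 d replicate 2 (-0.88) or line CIM 7 d replicate 3 (-1.0).

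OsGRAS23, annotated with a drought response, and Os11g0705200 differed between the genotypes in their change to CIM 7 d by -1.26 ± 0.20 and -1.85 ± 0.37. OsGRAS23 had 10.8 ± 3.03 CPM in the line and 24.5 ± 2.1 CPM in wild-type at CIM 7 d, against 19.2 ± 0.368 CPM in the line and 18.1 ± 0.116 CPM in wild-type on N6. Os11g0705200 was lower in the line at 7 d against N6 (-1.22 ± 0.26, adjusted p = 0.00089). Its neighbours on chromosome 11, Os11g0705900 and Os11g0706200, were called in no comparison, with largest absolute changes of 0.63 and 0.71 on the log2 scale. A locus on the opposite strand covers all 1782 bases of Os11g0706200. That locus had group means from 8.08 CPM in wild-type at CIM 2 d to 25.9 CPM in the line at CIM 7 d. Os11g0706200 had group means of 2.48 to 4.45 CPM, and the reads of the pair cannot be told apart.

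Some GRAS genes were higher in the line on CIM without a matching change in wild-type. Os01g0948200 had 51 ± 7.15 CPM in the line and 32.9 ± 1.81 CPM in wild-type at CIM 7 d, and 16.7 ± 1.59 CPM in the line and 29 ± 6.7 CPM in wild-type on N6. Its change to 7 d was 1.61 ± 0.16 in the line (adjusted p = 3.2e-07) and 0.18 ± 0.16 in wild-type (adjusted p = 0.35), a difference of 1.43 ± 0.22 (adjusted p = 4e-05) that fell under the fold threshold with library totals (0.90). Os10g0369600 had 30.2 ± 2.12 CPM in the line and 10.5 ± 0.587 CPM in wild-type at CIM 7 d, and its difference between the changes (1.44 ± 0.29, adjusted p = 0.00041) was 0.92 with library totals. A locus on the opposite strand, at 39.8 CPM in the line and 28.3 CPM in wild-type at 7 d, covers 1384 bases of Os10g0369600, and the reads of the pair cannot be told apart.

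The most abundant GRAS genes per length included both steady and changing members. Mean FPKM over the 24 libraries was 30.5 for Os12g0573200, 27.8 for OsHAM2, 26 for SCL1, 20.2 for Os01g0948200 and 18.5 for OsSCR2. Os12g0573200 had 63.5 to 114 CPM over all libraries and SCL1 had 36.7 to 79 CPM, and neither was called in any comparison. The other tested GRAS genes without a call were OsSCL14, OsSHR2, OsRAM1, Os11g0139600, Os11g0160600, Os11g0705900 and Os11g0706200, which makes 9 in all. NSP1 and NSP2, which in rice act in strigolactone synthesis, were at 0 in all 24 libraries.

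Calls of very low GRAS genes rest on few fragments. More genes stood at 4 counts than at 3 or 5 in every library, and 12 counts per library were taken as the floor. Os05g0500600 was at 0 in every wild-type library and reached 0.442 CPM in the line at CIM 7 d, at least 2.95-fold higher there than the floor of wild-type. Os01g0755600 was at 0 in wild-type at CIM 7 d, against 0.714 CPM on N6, at least 4.76-fold lower. OsSLRL2, Os04g0432100 and Os07g0589200 had no group mean above 0.587 CPM. Counting only calls whose higher group reached 1 CPM left 17 of 20 GRAS calls in wild-type at CIM 5 d, 15 of 16 at 7 d, and 21 of 23 in the line against wild-type at CIM 7 d.

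Dof genes were called in wild-type from 2 d on, in both directions. In wild-type at CIM 2 d against N6, 4 Dof genes were higher and 3 lower of 23 tested (30.4%, where 8.31% of all genes were called). By CIM 5 d 5 had risen and 6 had fallen, or 47.8%, where 27.1% of all genes were called. By CIM 7 d 5 had risen and 7 had fallen, or 52.2%, where 28.9% of all genes were called. The family's median log2 fold change was -0.93 at 5 d and -0.19 at 7 d, where that of all genes was 0.02 at both. Within the line 2 rose at CIM 2 d (background 1.59%, 1.22% higher). By 5 d 4 had risen and 1 had fallen (background 10.6%). By 7 d 5 had risen and 1 had fallen (background 22.5%), or 5 and 2 with library totals.

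In the line against wild-type 1 Dof gene was called on N6 (background 2.97%) and 5 at CIM 2 d, 2 of them higher and 3 lower (background 6.65%). The count was 9 at CIM 5 d, 7 of them higher and 2 lower (background 26.7%). It was 12 at CIM 7 d, 8 of them higher and 4 lower (background 39%). With library totals 5 were higher and 5 lower on both of these days. The count at CIM 2 d was 2 without wild-type replicate 2, line replicate 2 or line replicate 3. Summed over the family, Dof genes had 488 ± 52.2 CPM in the line and 202 ± 8.57 CPM in wild-type at CIM 7 d, and 308 ± 11.2 CPM in the line and 282 ± 35.9 CPM in wild-type on N6 (SD, n = 3 each). Most of the gap at 7 d lay in OsDof2 and OsDof4 (Os02g0726300), not in the family at large. OsDof2 had 169 CPM in the line and 13.1 CPM in wild-type, and OsDof4 (Os02g0726300) had 134 CPM in the line and 5.01 CPM in wild-type.

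**Figure D3:**
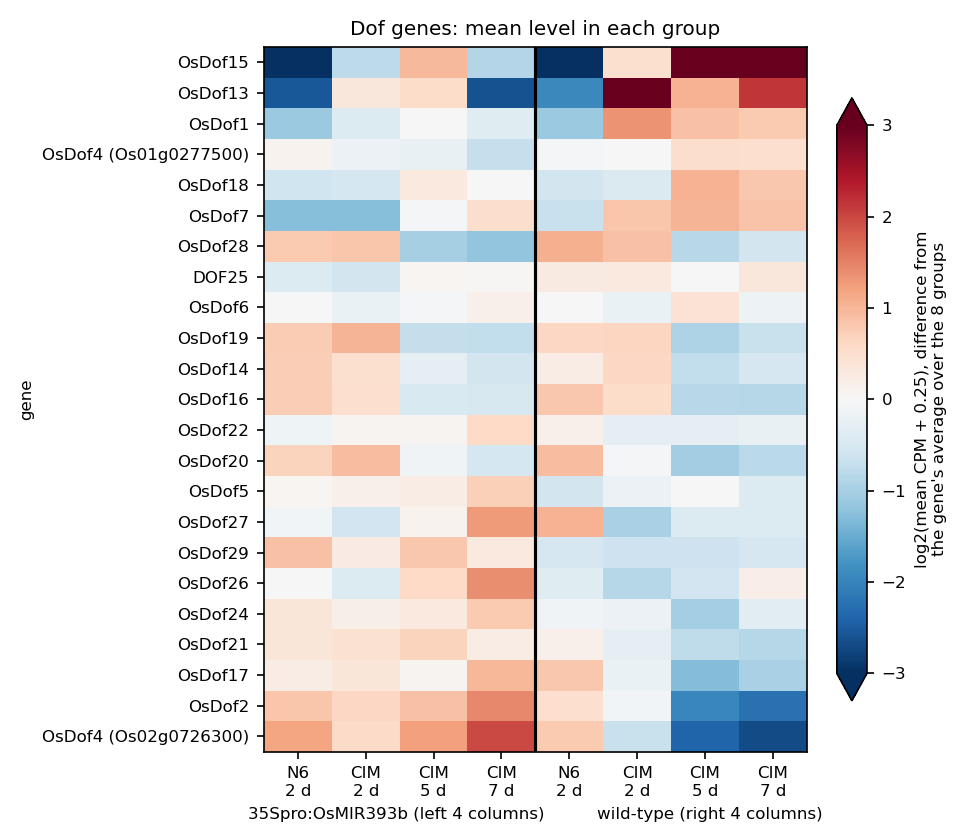
Mean level of the 23 tested Dof genes in the 8 groups, drawn as for the GRAS genes (log2 of mean CPM plus 0.25, relative to the gene's average). OsDof15, OsDof13, OsDof1 and OsDof7 are high in wild-type on CIM, and OsDof4 (Os02g0726300), OsDof2 and OsDof27 are low there and high in the line at 7 d.

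OsDof4 (Os02g0726300), similar to an ascorbate oxidase promoter-binding protein, had the highest mean FPKM of the family (35.9) and fell in wild-type on CIM. The name OsDof4 is also carried by Os01g0277500, so the ID is given each time. OsDof4 (Os02g0726300) had 155, 113 and 134 CPM in the line and 4.55, 3.75 and 6.73 CPM in wild-type at CIM 7 d, and 78.9, 76.1 and 77.6 CPM in the line and 45.6, 65.9 and 62.9 CPM in wild-type on N6. No line library came near a wild-type library at 7 d. In wild-type its log2 fold change against N6 was -1.45 ± 0.28 at 2 d (adjusted p = 0.0012), -3.24 ± 0.30 at 5 d (adjusted p = 5.8e-08) and -3.54 ± 0.30 at 7 d (adjusted p = 2.1e-08). In the line it was -0.61 ± 0.27, 0.03 ± 0.27 and 0.79 ± 0.27 at those times, none of them called. The changes to 7 d differed by 4.33 ± 0.40 (adjusted p = 2.3e-07).

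OsDof2 (Os02g0673700, mean FPKM 32.4) was also lower on CIM in wild-type alone. It had 183, 150 and 174 CPM in the line and 11.5, 12.1 and 15.8 CPM in wild-type at CIM 7 d, and 106, 108 and 118 CPM in the line and 85.9, 83.8 and 94.4 CPM in wild-type on N6. Its log2 fold change in wild-type was -0.57 ± 0.19 at 2 d (adjusted p = 0.045, under the fold threshold), -2.47 ± 0.20 at 5 d (adjusted p = 1.7e-08) and -2.74 ± 0.20 at 7 d (adjusted p = 4.8e-09). The change to 7 d differed between the genotypes by 3.35 ± 0.28 (adjusted p = 1.1e-07). A locus on the opposite strand covers 209 bases of OsDof2 and had 16 CPM in the line and 0.826 CPM in wild-type at 7 d, so reads in that stretch cannot be told apart. OsDof18 (Os04g0567800), which carries the same annotated similarity as OsDof2, was instead higher in wild-type, by 1.66 ± 0.32 at 5 d (adjusted p = 0.00027) and 1.39 ± 0.32 at 7 d (adjusted p = 0.0011).

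OsDof17 and OsDof27 were also lower in wild-type on CIM. OsDof17 (Os04g0678400) had 52, 33.2 and 25.7 CPM in the line and 9.53, 8.01 and 10.3 CPM in wild-type at CIM 7 d, and 18.4, 23.7 and 22.5 CPM in the line and 22.4, 43 and 31.1 CPM in wild-type on N6. Its fall in wild-type at 2 d (-1.02 ± 0.25, adjusted p = 0.0095) was lost without N6 replicate 2 (-0.75), CIM 2 d replicate 2 (-0.92) or CIM 2 d replicate 3 (-0.93), and at 7 d it was -1.80 ± 0.26 (adjusted p = 1.1e-05). OsDof27 (Os10g0496000) had 9.27, 9.06 and 6.47 CPM in the line and 1.72, 2.27 and 3.23 CPM in wild-type at CIM 7 d, and 2.3, 2.89 and 4.08 CPM in the line and 5.96, 8.33 and 6.62 CPM in wild-type on N6. The order of the genotypes was thus opposite at the ends of the series, with changes to 7 d of 1.42 ± 0.28 in the line (adjusted p = 0.00039) and -1.53 ± 0.28 in wild-type (adjusted p = 0.00014) that differed by 2.95 ± 0.39 (adjusted p = 7.9e-06). Its difference on N6 (-1.17 ± 0.28, adjusted p = 0.014), the only Dof call there, was lost without wild-type replicate 2 (-1.02) or line replicate 1 (-1.0) or 2 (-1.13).

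Among the Dof genes that were higher on CIM in wild-type, OsDof15 reached the highest level (46.9 ± 3.45 CPM at 7 d, SD, n = 3). OsDof15 (Os03g0764900, chromosome 3, 31662332 to 31663957) is known in rice for a part in the elongation of the primary root. It had 14.8, 5.08 and 1.31 CPM in the line and 47.9, 35.1 and 34.3 CPM in wild-type at CIM 5 d, and 0.148, 3.26 and 1.93 CPM in the line and 46.2, 50.6 and 43.8 CPM in wild-type at CIM 7 d. On N6 it had 0, 0.121 and 0.179 CPM in the line and 0, 0.155 and 0.124 CPM in wild-type. OsDof15 was near 0 on N6 in both genotypes, and at 5 d the line replicate that stood apart was its highest. In wild-type the log2 fold change was 5.73 ± 1.16 at 2 d (adjusted p = 0.0021), 8.71 ± 1.23 at 5 d (adjusted p = 9.9e-06) and 8.97 ± 1.23 at 7 d (adjusted p = 6.4e-06), values that depend on the few counts on N6. The line differed from wild-type by -4.71 ± 0.95 at CIM 7 d (log2, adjusted p = 0.00025).

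The difference of OsDof15 at CIM 5 d (-2.47 ± 0.85, adjusted p = 0.02) was lost without wild-type replicate 1 (-2.29), line replicate 2 (-2.28) or line replicate 3 (-1.98). The genotype difference in its change to 7 d (-4.84 ± 1.87, adjusted p = 0.04) was lost without any of 7 of the 12 libraries (adjusted p = 0.051 to 0.19) and with the counts divided by 4 (-5.01, adjusted p = 0.16). Those 7 were wild-type N6 replicates 1 and 3, wild-type CIM 7 d replicates 1 and 2, line N6 replicates 2 and 3 and line CIM 7 d replicate 3.

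OsDof13 (Os03g0619151) was highest in wild-type at CIM 2 d. It had 4.82, 0.468 and 2.21 CPM in the line and 14.8, 19.7 and 18.9 CPM in wild-type at CIM 2 d, and 0, 0.185 and 0.129 CPM in the line and 10.1, 7.95 and 9.87 CPM in wild-type at CIM 7 d. On N6 it had 0.128, 0.0909 and 0.146 CPM in the line and 0.465, 0.31 and 0.186 CPM in wild-type. In wild-type its log2 fold change against N6 was 5.78 ± 0.93 at 2 d (adjusted p = 0.00029), 3.72 ± 0.86 at 5 d (adjusted p = 0.0014) and 4.85 ± 0.89 at 7 d (adjusted p = 0.00015). In the line it was called higher at 5 d (4.58 ± 0.95, adjusted p = 0.0017), and at 2 d (4.35 ± 0.94, adjusted p = 0.017), where the call was lost without any of the N6 libraries (4.17 to 4.50) or without CIM 2 d replicate 1 (3.45). At 7 d its change in the line was -0.19 ± 1.14 (adjusted p = 0.92). The changes to 7 d differed by -5.04 ± 1.43 (adjusted p = 0.0069, and 0.054 with the counts divided by 4). The difference at CIM 2 d (-2.83 ± 0.79, adjusted p = 0.018) was lost without wild-type replicate 2 (-2.75), line replicate 2 (-2.34) or line replicate 3 (-2.75).

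**Figure D4:**
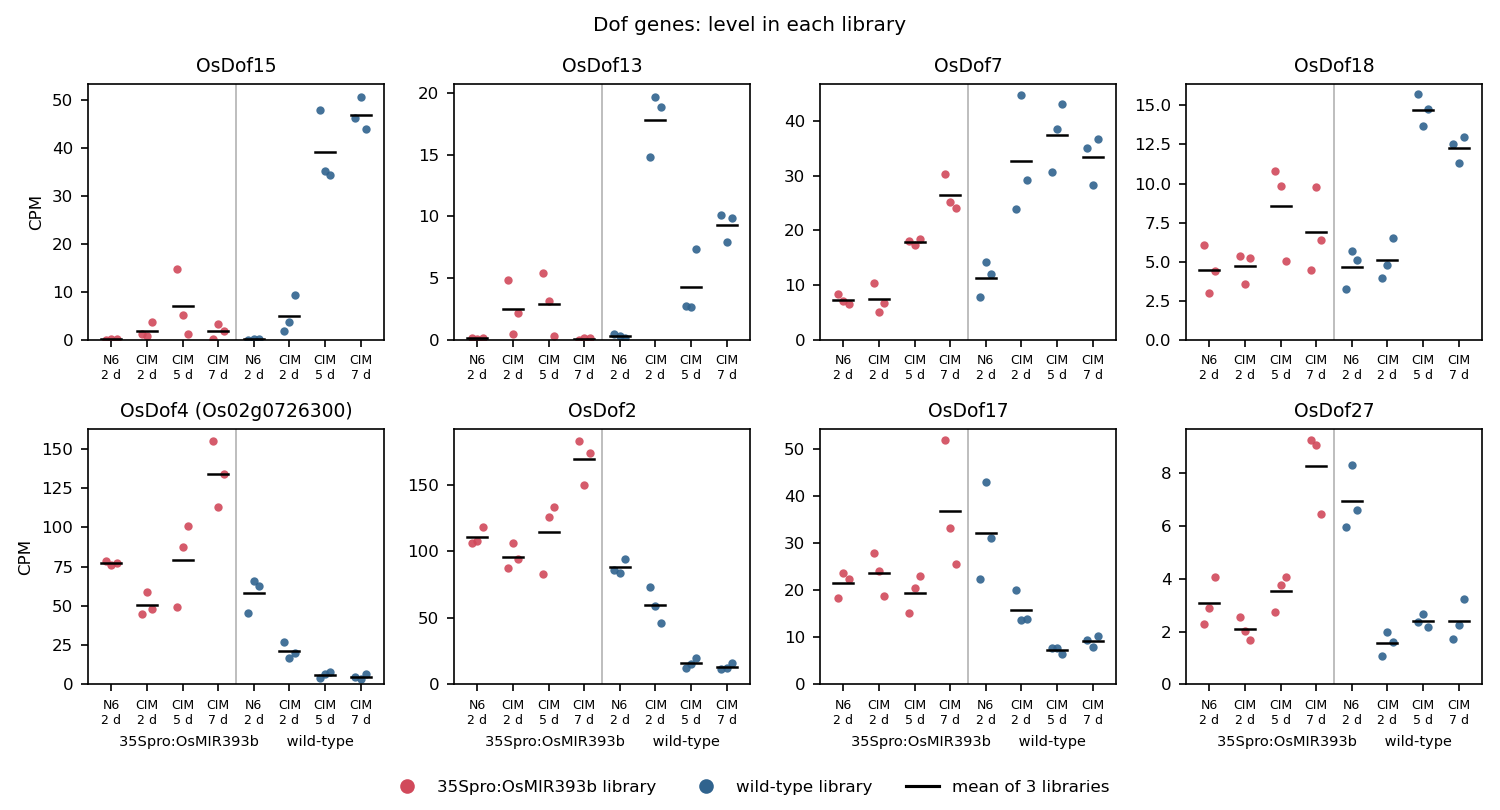
CPM of 8 Dof genes in each of the 24 libraries (dots; red, the line, left; blue, wild-type, right; bars, means of 3), on N6 at 2 d and on CIM at 2, 5 and 7 d. OsDof15 stands at 34.3 CPM or more in all wild-type libraries of 5 and 7 d and at 14.8 CPM or less in every line library, and OsDof4 (Os02g0726300) and OsDof2 separate the genotypes in the opposite direction.

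OsDof7 (Os02g0707200), similar to a Dof-like protein 34, was higher on CIM in both genotypes, from 2 d in wild-type and at 5 and 7 d in the line. It had 10.4, 5.06 and 6.82 CPM in the line and 24, 44.7 and 29.3 CPM in wild-type at CIM 2 d, a log2 difference of -2.14 ± 0.26 (adjusted p = 4.2e-05). At CIM 7 d it had 30.4, 25.2 and 24.1 CPM in the line and 35.1, 28.4 and 36.8 CPM in wild-type, where the libraries overlapped and the difference was -0.33 ± 0.25 (adjusted p = 0.26). Against N6 the change in the line was 0.01 ± 0.25 at 2 d, 1.29 ± 0.25 at 5 d (adjusted p = 0.0011) and 1.85 ± 0.26 at 7 d (adjusted p = 1.2e-05). In wild-type it was 1.52 ± 0.25 (adjusted p = 0.0004), 1.72 ± 0.25 and 1.55 ± 0.25. The genotypes differed in its change to 2 d by -1.50 ± 0.35 (adjusted p = 0.058, not called). That test called 0 Dof genes with edgeR, whereas 5 had an unadjusted p under 0.05 and DESeq2 called 3, OsDof7, OsDof17 and OsDof27 (background 0.535%). For the GRAS genes the count was 0 with edgeR and DESeq2, with 6 at an unadjusted p under 0.05.

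OsDof1 (Os01g0865800) was at 0 on N6 in all 6 libraries. At CIM 2 d it had 0.311, 0.052 and 0.119 CPM in the line and 1.01, 1.43 and 0.973 CPM in wild-type, and wild-type was at least 6.25-fold higher than its N6 floor. The line mean of 0.161 CPM was under the floor of 0.19 CPM and gives no fold. Its differences between the genotypes at CIM 2 d (-2.81 ± 0.73, adjusted p = 0.015) and 7 d (-1.98 ± 0.71, adjusted p = 0.024) were each lost without any of 3 libraries. These were wild-type replicate 2 and line replicates 2 and 3 at 2 d (-2.40 to -2.63), and wild-type replicate 3 and line replicates 1 and 3 at 7 d (-1.56 to -1.90). Other low Dof genes with calls were OsDof20, OsDof21 and OsDof29, with no group mean above 0.997 CPM. Counting only calls whose higher group reached 1 CPM left 9 of 11 Dof calls in wild-type at CIM 5 d and 9 of 12 at 7 d. It left 10 of 12 in the line against wild-type at CIM 7 d, and 1 of 2 within the line at CIM 2 d. OsDof16, with 0.994 CPM in the line and 0.713 CPM in wild-type at CIM 7 d, fell in both genotypes, by 1.41 in the line (-1.41 ± 0.40, adjusted p = 0.0077) and by 1.97 in wild-type (-1.97 ± 0.41, adjusted p = 0.00046).

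Of the remaining Dof genes, OsDof24, OsDof26, OsDof4 (Os01g0277500), OsDof22 and OsDof5 had calls. OsDof24 (Os08g0490100), similar to the prolamin-box binding factor PBF of cereal endosperm, had 43 CPM in the line and 20.1 CPM in wild-type at CIM 7 d (1.10 ± 0.11, adjusted p = 1.2e-07), a difference of 0.50 with library totals and of 0.98 without line replicate 1. OsDof26 rose in the line at CIM 7 d against N6 (1.60 ± 0.48, adjusted p = 0.011), a call held without each library in turn (1.42 to 1.71). It was higher in the line than in wild-type at CIM 5 and 7 d by 1.42 ± 0.48 and 1.35 ± 0.48, and with library totals by 1.01 and 0.75, neither of which passed. The calls were also lost without wild-type replicate 1 or 3 or line replicate 2 at 5 d (1.22 to 1.24), and without wild-type replicate 1 or 2 or line replicate 3 at 7 d (1.17 to 1.27). A locus on the opposite strand covers 2553 bases of OsDof26 and had 10.9 CPM in the line and 3.12 CPM in wild-type at 7 d, and the reads of the pair cannot be told apart. OsDof4 (Os01g0277500), with a role in flowering time, was lower in the line at CIM 7 d (-1.25 ± 0.14, adjusted p = 2.5e-07). OsDof22 and OsDof5 were called in 1 comparison each, and OsDof6, OsDof14, OsDof19, OsDof28 and DOF25, the last an activator of a photosynthesis gene, in none. The OsDof5 call, higher in the line than in wild-type at CIM 7 d, was lost with library totals (0.87). There OsDof5 had 1.34 CPM in the line and 0.484 CPM in wild-type. A locus on the opposite strand covers 4367 of its bases, at 35.2 CPM in the line and 9.93 CPM in wild-type. Reads of OsDof5 and that locus cannot be told apart.

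The difference between the genotypes in the change from N6 was tested itself. By CIM 5 d 5 GRAS genes had a higher and 5 a lower change in the line (background 18.3%, 11.8% higher and 6.5% lower). Among the Dof genes 4 were called, OsDof2, OsDof4 (Os02g0726300), OsDof17 and OsDof27, each with a higher change in the line. At CIM 7 d the numbers were 6 higher and 12 lower for GRAS and 5 higher and 3 lower for Dof (background 31.6%, 15.5% higher and 16.1% lower). With library totals 3 GRAS genes were higher and 7 lower at 5 d, and 4 Dof genes were higher and 1 lower. At 7 d with that scaling 3 GRAS genes were higher and 16 lower, and 4 Dof genes were higher and 4 lower.

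**Figure D5:**
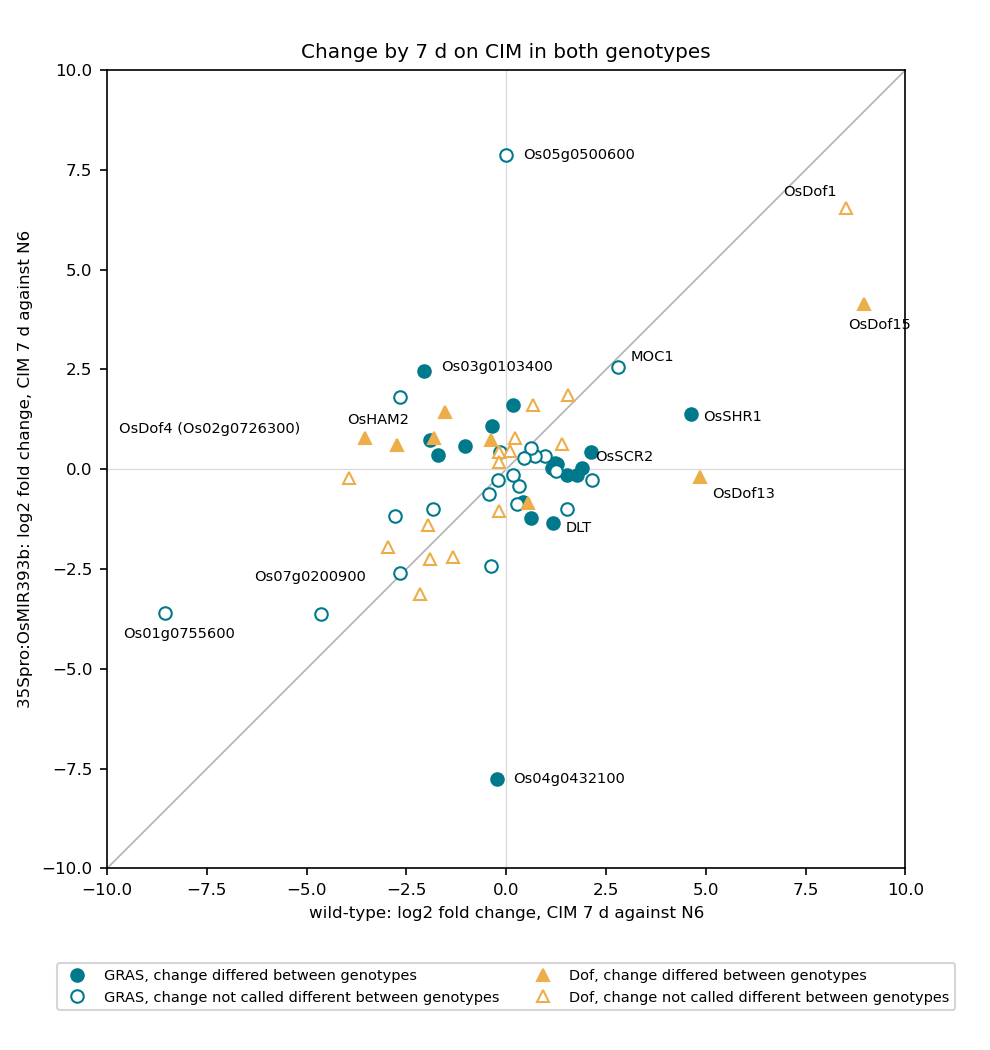
Log2 fold change from N6 to CIM 7 d of the 40 GRAS genes (circles) and 23 Dof genes (triangles), in wild-type (horizontal axis) and in the line (vertical axis), filled where the genotypes were called different and with the line of equal change. OsDof15, OsSHR1 and OsDof13 lie right of that line and OsDof4 (Os02g0726300), OsHAM2 and Os03g0103400 left of it. The fitted values of Os05g0500600, Os04g0432100, Os01g0755600 and OsDof1 rest on groups at 0 and are no measure of size.

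INDETERMINATE DOMAIN (IDD) proteins, zinc finger factors that bind DNA together with SHR and SCR in Arabidopsis, were taken as the partner list of the GRAS genes. The list, found by annotation words or gene names, had 18 entries, of which 16 were tested. Not all are IDD zinc finger genes by annotation. LPA1 (Os02g0819400) is annotated to phytic acid metabolism, Os01g0195066 as a non-protein coding transcript and Os07g0581400 as a hypothetical gene. LPA1 had 275 CPM in the line and 134 CPM in wild-type at CIM 5 d. These entries were not taken out of the counts that follow. In wild-type 2 rose and 5 fell at CIM 5 d (background 27.1%) and likewise by 7 d (background 28.9%). In the line against wild-type 6 of the 16 were called at CIM 5 d, all of them higher (background 26.7%, 15.8% higher). At CIM 7 d 7 of the 16 were called, 4 of them higher and 3 lower (background 39%), a share near that of all genes. OsIDD9 was the member that was higher at every time in wild-type, by 5.24 ± 0.54 at 2 d (adjusted p = 3e-06), 6.77 ± 0.57 at 5 d (adjusted p = 2.3e-08) and 6.50 ± 0.56 at 7 d (adjusted p = 2.7e-08). Its change to 7 d differed in the line by -2.58 ± 0.70 (adjusted p = 0.0052). OsIDD4 fell in wild-type at 7 d (-3.81 ± 0.26, adjusted p = 1.8e-09) and less in the line (-1.18 ± 0.23, adjusted p = 0.00038), with a difference of 2.63 ± 0.33 (adjusted p = 4.3e-06). RISBZ1, the storage protein activator that acts with a Dof factor in rice endosperm, was higher at CIM 7 d by 2.78 ± 1.07 in the line (adjusted p = 0.041) and 3.51 ± 1.11 in wild-type (adjusted p = 0.012), at levels of 1.33 to 2.79 CPM in the line and 2.1 to 2.34 CPM in wild-type.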

How the data were processed

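Estimated counts and FPKM values per gene of 24 libraries were deposited by the authors. The submitters' processing notes name Trimmomatic 0.36, HISAT2 2.1.0, StringTie 1.3.4d and the build IRGSP-1.0. The kit was unstranded. The methods also name UMI-tools, whose use on these counts is not given. Every count of 0 carried the deposited FPKM fill value of 0.0001, and more genes were at 4 counts than at 3 or 5 in all 24 libraries. The library totals limit the precision of low genes, and intervals cover the spread between libraries only.

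Members and lists were chosen with earlier results of these data known. Estimated counts were rounded, filtered with filterByExpr and fitted with edgeR 4.0.16 under R 4.3.3 (TMM, quasi-likelihood F-test, Benjamini-Hochberg adjustment), using 1 fit of 8 groups with 16 residual degrees of freedom. Each SE was worked back from the log2 fold change and its F value. The code was tested on simulated data. Whether replicates came from separate cultures beyond pooled seeds is not stated, so p-values measure the spread between these samples. Named are, per comparison and family, up to 4 called genes with the smallest p in each direction whose higher group has 1 CPM, the 5 with the highest FPKM, those with a name or role, and any at 0 in a group with 10 CPM in another (29 GRAS and 25 Dof genes). Genes named beyond this rule were chosen after their values were seen. Alternatives were DESeq2 1.42.0, RLE factors, library totals, no filter, only the groups compared, a replicate block, each library left out, no minimum fold and, added after seeing the data, counts divided by 4. Tables and figures used Python 3.11.15, pandas 2.3.3, NumPy 2.4.6 and Matplotlib 3.10.9. The rule did not match RPBF, RDD1, RDD4, OsCDF3 and a pair of Monoculm1-like genes, which were not counted as members and are not described. No sequences were used here.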

Additional observations from a re-analysis of the deposited data

Results flagged for a closer look

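The change from N6 to CIM differed between the genotypes in the edgeR test of the difference itself for the following genes. Values are the change in the line minus that in wild-type on the log2 scale.

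At CIM 5 d the difference was positive for OsDof4 (Os02g0726300) at 3.27, OsDof2 at 2.51, OsDof17 at 2.00 and OsDof27 at 1.73. Among the GRAS genes it was positive for Os07g0567700 at 3.14, Os03g0103400 at 2.46, OsHAM2 at 2.41, OsHAM1 at 1.89 and Os10g0369600 at 1.04. It was negative for OsSCR2 at -1.98, OsSCR1 at -1.52, Os04g0580300 at -1.25 and Os03g0193000 at -1.10.

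By CIM 7 d the difference was positive for the Dof genes OsDof4 (Os02g0726300) at 4.33, OsDof2 at 3.35, OsDof27 at 2.95, OsDof17 at 2.58 and OsDof22 at 1.12, and negative for OsDof13 at -5.04, OsDof15 at -4.84 and OsDof4 (Os01g0277500) at -1.39. The value of OsDof13 rests on line libraries under the floor on N6 and at 7 d. Positive GRAS genes were Os03g0103400 at 4.51, OsHAM2 at 2.62, OsHAM1 at 2.06, Os10g0369600 at 1.44 and Os01g0948200 at 1.43. Negative ones were OsSHR1 at -3.26, DLT at -2.53, OsSCR2 at -1.87, Os11g0705200 at -1.85, Os03g0193000 at -1.69, Os01g0842200 at -1.66, OsGRAS23 at -1.26, OsSCR1 at -1.16 and OsSCRL at -1.12. Beyond the rule for named genes, the test also called Os12g0138166 (-1.44 at 5 d and -1.91 at 7 d) and Os02g0681900 (-1.08 at 7 d).

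Without some of the libraries the calls of Os07g0567700, Os10g0369600 and Os03g0193000 at 5 d and of OsSHR1, DLT, OsDof15 and OsSCRL at 7 d were lost. For Os07g0567700 at 5 d this held for 10 of the 12 libraries, all but wild-type CIM 5 d replicate 2 and line CIM 5 d replicate 1, with values of 2.94 to 3.20. With library totals the calls of OsDof22 (0.59), Os01g0948200 (0.90) and Os10g0369600 (0.92) at 7 d and of Os07g0567700 (2.79) and Os10g0369600 (0.68) at 5 d were lost.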

How the results depend on the processing

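No value turned its direction. Of 181 calls of named genes, 137 held without each library in turn and 44 were lost without at least 1. DESeq2 kept 180 calls, RLE factors 181, no filter 181 and library totals 160. With only the groups compared 168 of 175 held, and with counts divided by 4, chosen after seeing the data, 173 of 175. The cause of these losses was not tested. A replicate block changed 0 of 26 family counts and 0 of 181 calls. The numbers did not pair the samples, since the deviations of same-numbered libraries correlated at -0.008 on average (-0.24 to 0.13, 84 pairs) and those of others at 0.004.

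Counts of called genes moved by over 1.5 times as follows. The GRAS count in wild-type at CIM 2 d (1) was 3 with DESeq2, 3 with only the groups compared and 5 with counts divided by 4. The Dof count in the line at CIM 2 d (2) was 1 with only the groups compared. In the line against wild-type the GRAS count on N6 (1) was 3 with only the groups compared, and at CIM 2 d (2) it was 1 with that setting and 1 with library totals. For the genotype difference in the change to 2 d the Dof count (0) was 3 with DESeq2 and 1 with counts divided by 4.

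With no minimum fold the GRAS count was 6 in wild-type at CIM 2 d, 1 in the line at CIM 2 d and 16 at CIM 7 d, and in the line against wild-type 5 on N6, 6 at CIM 2 d and 26 at CIM 5 d. The Dof count was 12 in the line at CIM 7 d, 2 on N6 and 8 at CIM 2 d in the line against wild-type, and 7 for the genotype difference in the change to 5 d.

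Leaving out 1 library gave GRAS counts of 1 to 4 in wild-type at CIM 2 d, and in the line against wild-type 0 to 1 on N6, 0 to 3 at CIM 2 d and 9 to 21 at CIM 5 d. Dof counts were 1 to 2 in the line at CIM 2 d, 0 to 1 on N6 and 2 to 5 at CIM 2 d in the line against wild-type, and 0 to 1 for the genotype difference in the change to 2 d. The other counts stayed within 1.5 times. Depth limits genes under 12 counts per library.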
